A study of Homo sapiens with 2 samples.

Results

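The miRs whose hairpins lie inside the HOX clusters were examined in K562/ADM and K562 cells: miR-10a, miR-10b, miR-196a, miR-196b and miR-615. Names were kept when nothing but the hsa prefix, an arm suffix, a copy number or an asterisk separated them from these stems, which gave 9 of the 934 names of the table. K562 is a human chronic myelogenous leukemia line, and K562/ADM is its derivative, selected by exposure to rising amounts of adriamycin, an anthracycline drug, and then kept in 1000 ng/mL of it. Each line gave 1 small RNA library, so no difference has a replicate check, and the effect of the drug in the medium and of the selection cannot be told apart. The sources used here do not say whether K562/ADM is 1 clone.

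HOX genes encode transcription factors that set position along the body axis, and they also act in blood stem and progenitor cells. They stand in the clusters HOXA, HOXB, HOXC and HOXD, whose members are copies of one another. The miR-10 hairpins lie beside the HOX4 genes and the miR-196 hairpins between the HOX9 and HOX10 positions, and both families repress HOX mRNAs. MiR-10a is known to fall as human progenitors mature to megakaryocytes, miR-196b is known from acute leukemias with high HOXA genes, and miR-10b is known for its part in the spread of breast cancer cells.

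On GRCh37, MIR10A occupies 46657200 to 46657309 of chromosome 17, minus strand, in an intron of HOXB3 and 1.49 kb from HOXB4. MIR196A1 occupies 46709852 to 46709921 of that strand, in an intron of the annotated HOXB7 gene and 6.13 kb from HOXB9. MIR196A2 occupies 54385522 to 54385631 of chromosome 12, plus strand, in an intron of HOXC6 and 1.46 kb from HOXC10. MIR615 follows on that strand at 54427734 to 54427829, in an intron of HOXC5 that is also intronic to HOXC4. MIR196B occupies 27209099 to 27209182 of chromosome 7, minus strand, within an exon of the transcript HOXA9-205 and 1.04 kb from HOXA10. MIR10B occupies 177015031 to 177015140 of chromosome 2, plus strand, in an intron of HOXD3 and 1.14 kb from HOXD4. Each hairpin was on the strand of the HOX genes around it.

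RefSeq (GRCh38.p14) gave a mature sequence for 8 of the 9 names, all but miR-10b. The major arms are shown first, because the results turn on them, 5′ to 3′ with the seed (bases 2 to 8) in capitals:
miR-10a: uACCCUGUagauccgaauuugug
miR-196a: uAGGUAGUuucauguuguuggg
miR-196b: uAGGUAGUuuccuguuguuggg
miR-615-3p: uCCGAGCCugggucucccucuu

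MiR-196a and miR-196b have the same seed and differ by A12C alone, counted from 1 at the 5′ end with the miR-196a base first. MiR-196a is made from both MIR196A1 in HOXB and MIR196A2 in HOXC, and its reads cannot be assigned to either. The name mir-196a-1*, spelled mir, was matched by name alone to the RefSeq sequence of MIR196A1. The sources used here do not say what the asterisk marks under that spelling. Some hairpins are listed under both spellings, such as mir-21* and miR-21*. With that limit, the minor arms are shown next, because those of miR-196a differ between its hairpins:
miR-10a*: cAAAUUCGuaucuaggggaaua
miR-196a* (MIR196A2): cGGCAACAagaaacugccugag
mir-196a-1* (MIR196A1): cAACAACAuuaaaccacccga
miR-615-5p: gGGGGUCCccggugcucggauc

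The longest run shared by the asterisk arms of miR-196a was 6 bases. Bases 3 to 9 of let-7f are the seed of miR-196a. MiR-99b, a relative of miR-10, shares with miR-10a a run of 5 bases, from base 7 of miR-10a and base 6 of miR-99b. MiR-615-3p shares a run of 5 bases with miR-10a as well, so a run of this length does not mark a relative. The sequences of let-7f and miR-99b are:
let-7f: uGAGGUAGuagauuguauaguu
miR-99b: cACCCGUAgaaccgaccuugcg

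MiR-196a is known to direct cleavage of the HOXB8 mRNA. In the 3′ UTR of HOXB8-201 (GRCh37, minus strand, chr17:46690132-46690153) the site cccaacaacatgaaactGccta paired with 21 of the 22 bases of miR-196a by Watson-Crick rules. The capital marks the base opposite position 5 of miR-196a, where U stands against G. Among 19806 protein-coding genes HOXB8 alone had a window with as many pairs. The match is a description, and no mRNA was measured in these libraries.

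The 934 listed names held 6895193 reads in K562/ADM and 7677738 in K562, recovered as whole reads from the deposited values. Below, the reads of a library and total reads mean these sums, not all reads sequenced. In the study's own read totals, K562/ADM had more reads than K562. Intervals are exact 95% intervals from the reads (Clopper-Pearson for shares and ratios, conditional for odds ratios), and they cover counting error only. The study's methods leave out sequences seen once, yet 124 names in K562/ADM and 100 in K562 stand at 1 read, and the sources used here do not reconcile this. The recomputed size factors give 1 read the same value as the smallest deposited value of each column (1.11 in K562/ADM and 0.904 in K562). Names at 0 or a few reads are therefore uncertain beyond their intervals. Libraries were scaled by the median of ratios, and a name was called higher or lower in K562/ADM where its scaled reads differed by 2-fold or more with an interval not holding 1. By this rule 11.1% of all 934 names were higher and 15.6% lower, with 104 and 146 names, and upper-quartile scaling gave 223 higher and 95 lower. Of the miRs typical of blood cells (miR-142-3p, miR-142-5p, miR-223, miR-150 and miR-155), 3 of 5 were listed under those names. They summed to 75170 RPM (reads of a name per 1000000 reads of all listed names) in K562/ADM and 47382 RPM in K562. Of these sums miR-142-3p alone had 73598 and 45807 RPM. MiR-142-5p had 1391 and 1352 RPM, and miR-223 went the other way, at 181 and 223 RPM. The erythroid miR-144, miR-451 and miR-486-5p summed to 5273 RPM in K562/ADM and 6741 in K562. MiR-451 (2863 and 3969) and miR-486-5p (1509 and 2048) went with the sum, and miR-144 (901 and 725) the other way. None of these blood and erythroid names was called. The muscle list reached 3.48 RPM in K562/ADM and 1.30 in K562, with miR-1 called higher (22 and 10 reads, a ratio of 2.69), and miR-122 of liver had 4 reads in each library. The epithelial list had 118 RPM in K562/ADM and 125 in K562, of which miR-141 alone had 108 and 116. Next came miR-200c, with 63 reads in K562/ADM and 58 in K562. MiR-200a was called higher (9 and 2 reads, a ratio of 5.51), and no other name of this list was called. MiR-205 had 0 reads and 1 read. Of the neural miRs, miR-124 had 2 reads and 1 read, while miR-9 was called higher, with 17882 reads in K562/ADM and 7976 in K562, a ratio of 2.75. The part of any of these in the results below was not tested, and in bulk RNA a change in some cells cannot be told apart from a change in RNA per cell.

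The HOX cluster miRs took a larger share of the listed miR reads in K562/ADM. Together the 9 names had 19459 reads in K562/ADM, 0.282% of the reads of all listed names (95% interval 0.278 to 0.286). In K562 they had 10636 reads, 0.139% (0.136 to 0.141). MiR-10a alone made up 95.03% of the reads of the 9 names in K562/ADM and 97.07% in K562. MiR-196a made up 4.35% in K562/ADM and 1.86% in K562. Levels between names are given as RPM without division by length, since each name is a whole mature miR of 21 to 23 bases where its sequence was matched.

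**Figure D1:**
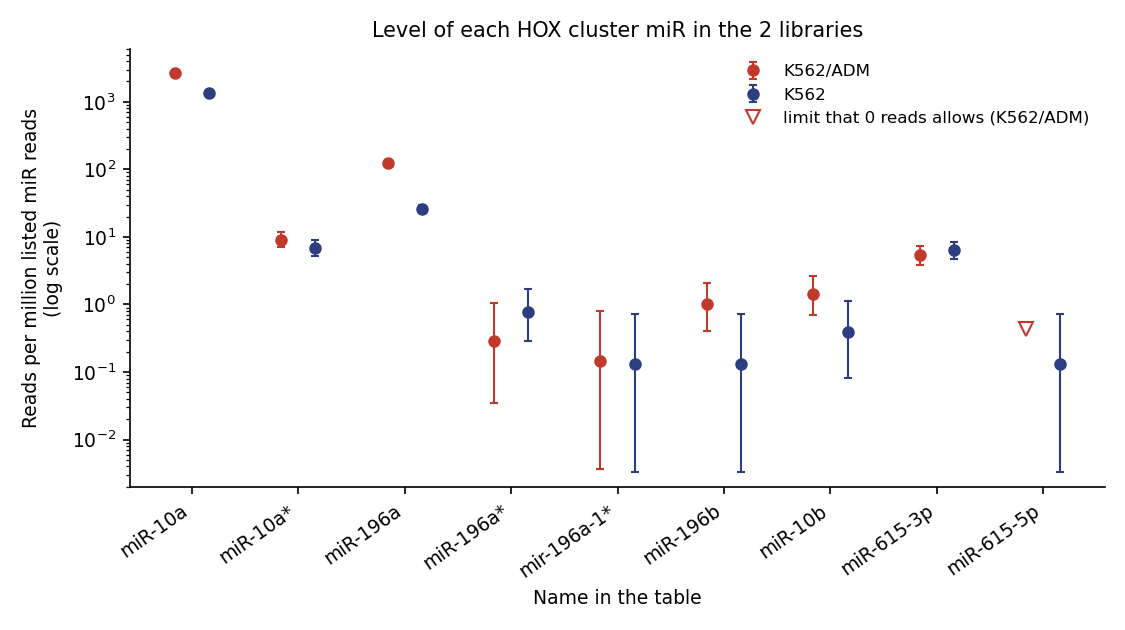
RPM (y axis, log scale) for each of the 9 names (x axis), K562/ADM in red and K562 in blue. Points are single libraries, bars are exact 95% counting intervals, and the open triangle is the limit that 0 reads allows. MiR-10a stands above 1000 RPM in both libraries, and the bars of miR-10a and of miR-196a do not overlap between the libraries.

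MiR-10a, of the HOXB cluster, was the most abundant by far and was about 2-fold higher in K562/ADM. It had 18492 reads in K562/ADM and 10324 in K562, which are 2682 (2643 to 2721) and 1345 (1319 to 1371) RPM. It ranked 26 among the names in K562/ADM and 47 in K562. The intervals did not overlap. The ratio of scaled reads was 2.19 (2.14 to 2.25), and it was 1.99 (1.95 to 2.04) when scaled by total reads, which ends the call, and 3.67 under upper-quartile scaling. The statement that it was higher holds under the 6 scalings tried, but the statement that it was at least 2-fold higher does not.

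MiR-196a, made from HOXB and HOXC hairpins, showed the clearest difference. It had 847 reads in K562/ADM and 198 in K562, which are 122.8 (114.7 to 131.4) and 25.8 (22.3 to 29.6) RPM. It ranked 112 in K562/ADM and 242 in K562. The ratio was 5.24 (4.48 to 6.15), and over the other scalings it ran from 4.76 to 8.77, so that the call held under each of the 6. Of 579 names found in both libraries with 10 or more reads in all, 35 had a higher ratio than miR-196a and 90 a higher one than miR-10a.

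MiR-196b of the HOXA cluster and miR-10b of the HOXD cluster were close to the limit of detection. MiR-196b had 7 reads in K562/ADM and 1 in K562, a ratio of 8.57 (1.10 to 386). MiR-10b had 10 reads in K562/ADM and 3 in K562, a ratio of 4.08 (1.05 to 23.1). Both were called higher, with intervals that begin just above 1, and the call of miR-10b was lost under 3 of the other scalings (3.71 by total reads, 3.80 without 14q32 and 3.76 by miR-425). Neither interval lay wholly above 2-fold.

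MiR-615-3p, the only arm of the HOXC5 intron hairpin with more than 1 read, was not called. It had 37 reads in K562/ADM and 49 in K562, or 5.37 (3.78 to 7.40) and 6.38 (4.72 to 8.44) RPM, and these intervals overlap. The ratio was 0.925 (0.587 to 1.45). It lay below 1 under each scaling but the upper quartile, where it was 1.55 (0.982 to 2.42). The interval held 1 under each scaling, so that its side of 1 is not settled. MiR-615-5p had 0 of 6895193 reads in K562/ADM, which allows up to 0.435 RPM when a count of 0 is taken to allow 3 reads, and 1 read in K562.

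**Figure D2:**
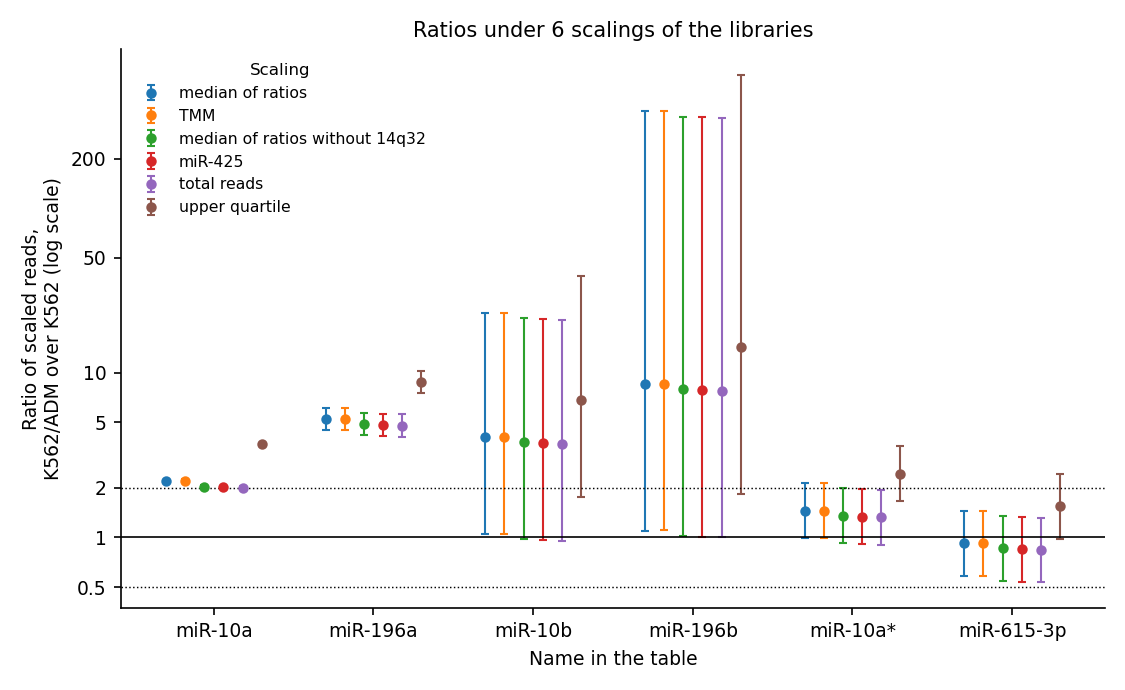
Ratio of scaled reads of K562/ADM over K562 (y axis, log scale) for 6 names (x axis) under 6 scalings of the libraries, 1 colour each (median of ratios, TMM, median of ratios without 14q32, miR-425, total reads, upper quartile). Bars are exact 95% counting intervals, a solid line marks equality and dotted lines 2-fold differences. MiR-196a lies above 2-fold under each scaling, miR-10a lies at 1.99 under total reads, and miR-615-3p crosses equality under the upper quartile.

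Of the 9 names, 4 were called higher in K562/ADM and 0 lower, beside 11.1% and 15.6% of all names. With a minimum of 50 reads, 2 of 4 were higher and 0 lower, beside 14.5% and 24.2% of 429 names. The median log2 ratio of these 4 HOX names was 0.84, beside -0.11 over all names of that depth found in both libraries. The 4 values ran from -0.11 for miR-615-3p to 2.39 for miR-196a.

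**Figure D3:**
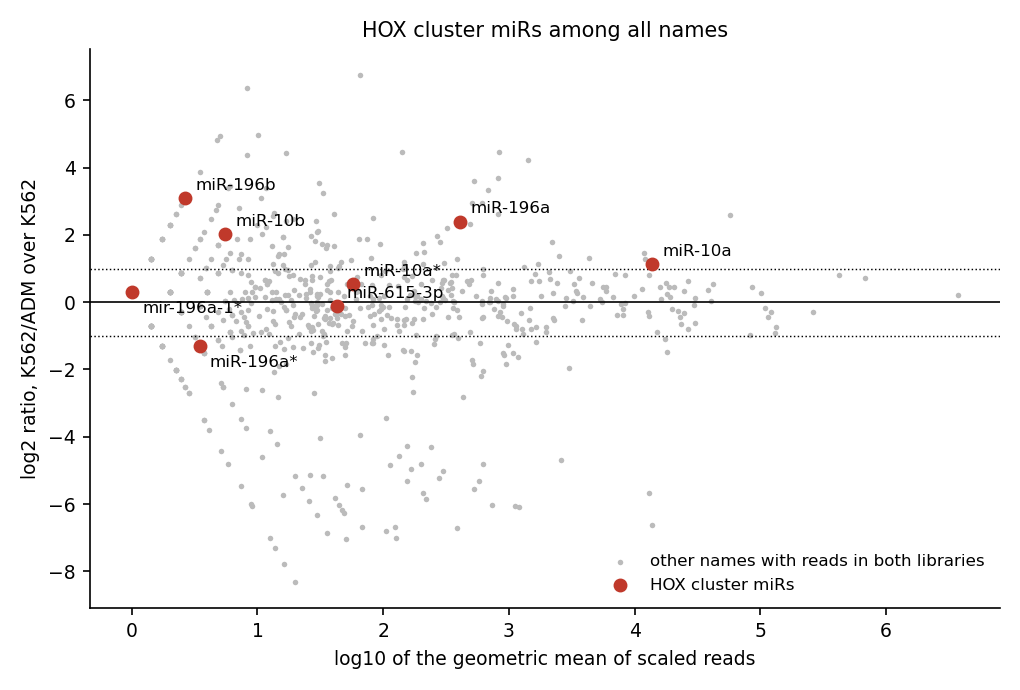
Log2 ratio of K562/ADM over K562 (y axis) against the log10 of the geometric mean of scaled reads (x axis) for names with reads in both libraries. Red points are the HOX cluster miRs and grey points the other names, a solid line marks equality and dotted lines 2-fold differences. MiR-10a (1.13) and miR-196a (2.39) lie above the upper dotted line at high read numbers, miR-10b and miR-196b lie above it where the grey points spread widely, and miR-615-3p (-0.11) lies near the solid line.

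The order of the levels was the same at the top of both libraries, with miR-10a first and miR-196a next. MiR-10a* and miR-615-3p followed. In K562/ADM miR-10a* had 9.14 RPM (7.02 to 11.7) and miR-615-3p 5.37 (3.78 to 7.40), and in K562 they had 6.90 (5.17 to 9.03) and 6.38 (4.72 to 8.44), so that these neighbours overlap in each library. MiR-10b and miR-196b came below them in K562/ADM, at 1.45 (0.695 to 2.67) and 1.02 (0.408 to 2.09) RPM, and they overlap as well. In K562 miR-196a* stood between miR-615-3p and miR-10b, at 0.781 (0.287 to 1.701) against 0.391 (0.0806 to 1.14) for miR-10b, again with overlap.

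The loci were compared through the ratio of 2 miRs' ratios, in which the scaling between libraries cancels. The 4 major arms with 10 or more reads in all gave 6 pairs, and the interval excluded 1 in 4. MiR-10b reached that minimum through its K562/ADM reads. MiR-196a exceeded miR-10a by 2.39-fold in its ratio (2.04 to 2.81) and miR-615-3p of HOXC by 5.67-fold (3.51 to 9.18). MiR-10a of HOXB exceeded miR-615-3p of HOXC by 2.37-fold (1.52 to 3.74). MiR-10b of HOXD exceeded miR-615-3p by 4.41-fold (1.02 to 26.3), where the lower bound is near 1. The ratio of miR-10b was 1.86 times that of miR-10a (0.479 to 10.5) and that of miR-196a was 1.28 times that of miR-10b (0.225 to 5.04), so that neither difference was detectable at this depth. Thus the ratios of miR-10a and miR-196a exceeded that of miR-615-3p whatever the scaling, while HOXA could not be placed, since miR-196b had 8 reads in all. These comparisons are between single libraries and not between the conditions.

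Summed by locus, the names that belong to HOXB alone had 18556 reads in K562/ADM and 10378 in K562, and those that belong to HOXC alone 39 and 56. HOXD had 10 and 3 reads and HOXA 7 and 1. The 847 and 198 reads of miR-196a belong to HOXB or HOXC. The only reads that name its hairpin are those of the minor arms, with mir-196a-1* placed by its name alone. MiR-196a*, from MIR196A2 in HOXC, had 2 reads in K562/ADM and 6 in K562, a ratio of 0.408 (0.0403 to 2.28), and mir-196a-1*, named for MIR196A1 in HOXB, had 1 read in each. Neither was called, and from so few reads the hairpin that gave the additional miR-196a cannot be told.

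Major and minor arms differed in their ratios for miR-10a and miR-196a. For miR-10a the minor arm had 63 reads in K562/ADM and 53 in K562, a ratio of 1.46 (0.994 to 2.14) against 2.19 for the major arm. MiR-10a* was thus 0.340% of the reads of both arms in K562/ADM (0.261 to 0.434) and 0.511% in K562 (0.383 to 0.668), an odds ratio of 0.664 (0.453 to 0.976). For miR-196a, whose major arm was higher, the names with an asterisk had 3 reads in K562/ADM and 7 in K562. They were 0.353% of all miR-196a reads in K562/ADM (0.0728 to 1.03) and 3.41% in K562 (1.38 to 6.91), an odds ratio of 0.100 (0.0166 to 0.445). Both intervals exclude 1, the first narrowly and the second on 10 reads in all. For miR-615 the minor arm was 0 of 37 reads in K562/ADM and 1 of 50 in K562, and no difference was detectable.

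A lower share of the asterisk arm was also common among other miRs. Over 81 other hairpins with an asterisk name spelled miR or let-7, reads in both libraries and at least 5 asterisk reads together, a set chosen after values had been seen, the median odds ratio was 0.835. Of these hairpins 26 had a lower odds ratio than miR-10a and 1 had a lower one than miR-196a, counted there with miR-196a* alone (0.0779). For some of these hairpins the asterisk arm held more reads than the other, as for miR-144 (36808 against 6216 in K562/ADM). The comparison thus mixes minor and major arms. The value of miR-10a lay within the range of the other hairpins. That of miR-196a lay near its lower end but rests on 8 asterisk reads (interval 0.00766 to 0.441). With at least 50 asterisk reads, 17 of 57 other hairpins lay below miR-10a, and miR-196a did not reach that minimum.

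For the rarer paralogs no difference in share was detectable at this depth. MiR-10b was 0.0540% of the miR-10a and miR-10b reads in K562/ADM (0.0259 to 0.0994) and 0.0291% in K562 (0.00599 to 0.0849), an odds ratio of 1.86 (0.479 to 10.5). MiR-196b was 0.820% of the miR-196a and miR-196b reads in K562/ADM (0.330 to 1.68) and 0.503% in K562 (0.0127 to 2.77), an odds ratio of 1.64 (0.208 to 74.1). MiR-196b differs from miR-196a by the single substitution shown above, and miR-10a and miR-10b are near copies. The sources used here do not say how reads that fit both were shared, so the few reads of miR-10b and miR-196b are uncertain, and the part of miR-10a or miR-196a reads in them was not tested.

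**Figure D4:**
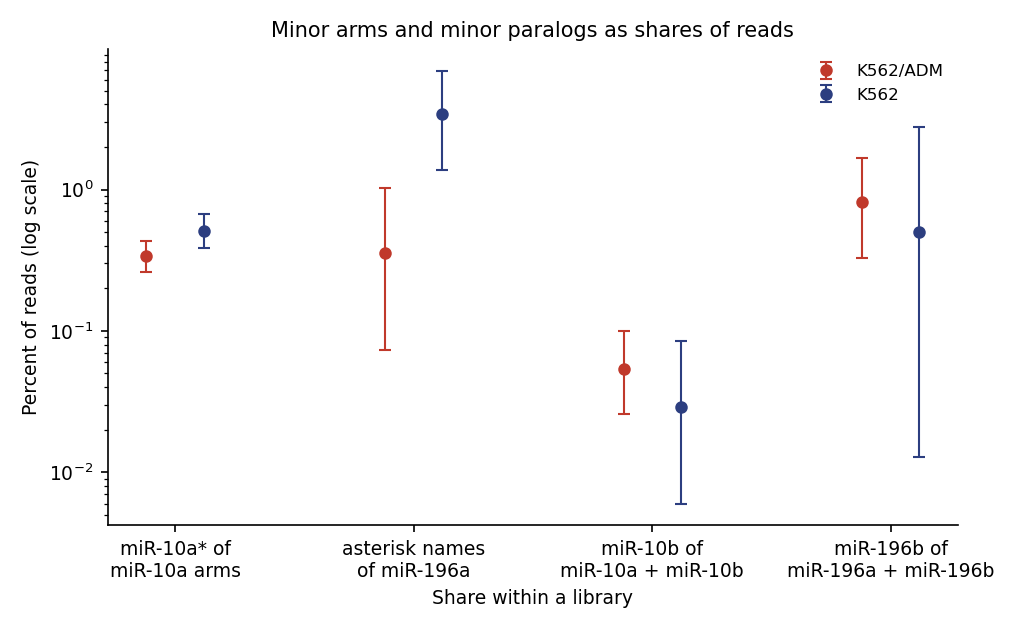
Percent of reads (y axis, log scale) of the minor arms and of the rarer paralogs within each library (x axis), K562/ADM in red and K562 in blue. Points are single libraries and bars exact 95% intervals. The bars of the asterisk names of miR-196a (0.353% and 3.41%) do not overlap, and those of the 3 other shares do.

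The relatives of miR-10 outside the HOX clusters are miR-99, miR-100 and miR-125, and no name of miR-100 was listed. The names of miR-99 and miR-125 gave 0 called of 8 in either direction, beside 11.1% higher and 15.6% lower of all names. Of these 8 names, 6 had 10 or more reads in both libraries together. Under upper-quartile scaling 3 of the 8 were higher. The most abundant, miR-99b, had 3799 reads in K562/ADM and 2470 in K562, a ratio of 1.88 (1.79 to 1.98), just under the limit, and of 3.15 under upper-quartile scaling. The ratio of miR-10a exceeded it by 1.16-fold (1.10 to 1.23). Thus miR-10a and miR-99b lay on either side of the 2-fold limit with a small difference between their ratios, and both passed it under the upper quartile. Of the 16 names of let-7 and miR-98, which regulate cell growth and differentiation, 1 was higher and 2 were lower, shares near those of all names. Let-7f, with 11864 reads in K562/ADM and 11125 in K562, had a ratio of 1.31 (1.27 to 1.34), and miR-196a exceeded it by 4.01-fold (3.42 to 4.72). The called names were let-7b with 11 and 2 reads, let-7d with 11 and 28 reads, and let-7e* with 2 and 33 reads.

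Names with levels and ratios most like those of the major arms were sought among those within 2-fold of the reads in each library. Nearest to miR-10a among 15 such names were miR-24 with a ratio of 2.41 (2.35 to 2.48), miR-27a with 1.76 (1.703 to 1.81) and miR-9 with 2.75 (2.67 to 2.82). Nearest to miR-196a among 10 were miR-1290 with 5.04 (4.38 to 5.83), miR-542-3p with 4.65 (3.91 to 5.55) and miR-215 with 3.90 (3.24 to 4.72). These names were picked for this likeness, which is thus no separate result, and it rests on 2 libraries only.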

How the data were processed

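Small RNA from 1 library each of K562/ADM and K562 was sequenced by the authors on an Illumina Genome Analyzer IIx as 36-base reads. The authors condensed reads to unique sequences, left out those seen once, removed adapters and mapped what remained with Bowtie, through miRanalyzer, to miRBase 16. CASAVA 1.7.0, DESeq and hg18 are named in the submitters' processing notes. The deposited signal is the read count of each name divided by the DESeq size factor of the library. The smallest value above 0 of a column was taken as 1 read, and 100% of values were then whole reads within 0.001. The authors' fold, log2 fold and p-value columns were not used.

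Scaling used the median of ratios, recomputed from the whole reads. With 1 library per line no count model could be fitted and no p-value was computed. The named miRs are all names of the 5 stems, their nearest names by ratio, and relatives of miR-10. Let-7 and miR-98 were added because the let-7 seed overlaps that of miR-196a. Members and lists were chosen with earlier results of these data known. Alternatives were 5 other scalings: TMM, miR-425, upper quartile, total reads of the listed names, and the median of ratios leaving out the 14q32 miRs. Minimums of reads, other call rules and 1 added to scaled values were also tried. Scaling by all sequenced reads was not tried. The exact intervals were checked on simulated libraries in which counting error was the only spread. That check cannot speak to the spread between libraries of 1 line. Hairpin positions come from matching RefSeq hairpins to GRCh37, and HOX genes from GENCODE. TMM and upper-quartile factors came from edgeR 4.0.16 in R 4.3.3, and the rest was computed in Python 3.11.15 with scipy 1.17.1 and pandas 2.3.3.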

Additional observations from a re-analysis of the deposited data

How the results depend on the processing

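Against the median of ratios, every log2 ratio shifted by -0.14 with total reads, -0.12 with miR-425, -0.10 without 14q32, 0.00 with TMM and 0.74 with the upper quartile. MiR-196a kept its call under each scaling and call rule tried, and miR-196b under each scaling. MiR-10a was no longer called with total reads (1.99), and miR-10b was not called with total reads (3.71), without 14q32 (3.80) or with miR-425 (3.76). Under the upper quartile miR-10a* was called higher (2.44) and miR-615-3p changed side (1.55). When the whole interval had to pass 2-fold, miR-10b (4.08) and miR-196b (8.57) were not called. The number of HOX names called higher was 4 by the rule used, and 2 with total reads, with the whole interval or with at least 50 reads. It was 3 without 14q32, with miR-425 or with at least 10 reads, and 5 with the upper quartile. The number called lower was 0, and 2 by fold alone (miR-196a* at 0.408 and miR-615-5p at 0 reads in K562/ADM). Over all names the counts of higher and lower were 236 and 275 by fold alone, 61 and 104 by the whole interval, and 223 and 95 with the upper quartile, against 104 and 146. The comparisons between loci kept their direction and their side of 1 when all names of a stem were summed. The lower asterisk share of miR-196a also held with miR-196a* alone. No paired analysis was possible because each line has 1 library. Counting error limits miR-10b, miR-196b, miR-615-3p (0.587 to 1.45) and all minor arms, of which miR-10a* least (0.994 to 2.14). The spread between libraries of 1 line is not known.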
